A study of Mus musculus with 54 samples.

Results

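The nuclear-encoded subunits of the mitochondrial respiratory chain were followed across 7 tissues of mice that swam or did not. The set held every gene whose symbol named a subunit of NADH dehydrogenase (complex I, Nduf), succinate dehydrogenase (complex II, Sdh), the cytochrome bc1 complex (complex III, Uqcr), cytochrome c oxidase (complex IV, Cox4 to Cox8) or ATP synthase (complex V, Atp5), and that had a probe set assigned to it alone. This gave 79 genes with 109 probe sets, out of 18759 genes and 25917 probe sets. Complex I contributed 33 genes, complex II 4, complex III 7, complex IV 18 and complex V 17, with Ndufa4 counted in complex IV, where it is now placed. Probe sets with more than 1 symbol were left out by this rule, so Cox7c, Uqcrc2 and Ndufa13 are not among the 79. Proteins that mitochondrial DNA encodes are outside the set, and none of the 26 mitochondrially encoded genes looked for was named on the array.

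Complexes I and II take electrons from NADH and succinate and pass them through ubiquinone to complex III, cytochrome c and complex IV, where oxygen is reduced. Complexes I, III and IV pump protons across the inner mitochondrial membrane, and complex V uses the return of these protons to make ATP. Complex IV has subunits that exist as paired isoforms, one of which is classically found in striated muscle and the other in most other tissues.

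Total RNA was hybridised to Affymetrix Mouse Gene 1.1 ST arrays, 1 array per sample, 54 in all. Swim mice were C57BL6 animals, 14 weeks of age per the labels and 11 to 12 weeks at the start of training. They were accustomed to swimming over 9 days with sessions that grew in steps of 10 min, then swam for 3 weeks in 2 daily sessions of 90 min with 4 h of rest between them. Control mice were C57BL6 animals of the same labelled age, and how they were handled while the others swam is not given. Visceral white adipose tissue, subcutaneous white adipose tissue, kidney, spleen and brain had 4 swim and 4 control arrays each, liver 4 swim and 3 control arrays, and skeletal muscle, with no named muscle, 3 swim and 4 control arrays. Arrays keep the numbers of their labels below. Sex, batch and time of tissue collection are not given, and nothing says whether arrays came from separate mice or whether tissues shared mice, so p-values measure only the spread between these arrays.

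Levels are log2(intensity + 16) after quantile normalization within a tissue, minus the median gene of that tissue, so 0 is the median gene. A level can be set against the same gene in another group or tissue and not against another gene. Changes with swimming are log2 differences, swim minus control, with the standard error (SE) of a limma fit in each tissue and p-values adjusted by Benjamini-Hochberg over all genes tested there, two-sided, with a threshold of 0.05. Of the 79 genes, 72 passed a filter that drops the lowest 40% of probe sets in all 7 tissues. Cox7b2 and Cox8c passed in none and lay between -2.38 and -1.34 and between -1.76 and -0.85 over the 54 arrays. Cox6b2 passed in 3 tissues, Cox8b in 4, Cox6a2 in 5, and Cox4i2 and Cox7a1 in 6. Median array intensities lay between 45.92 and 118.65. Markers of liver, kidney, brain and skeletal muscle averaged 7.38 to 7.51, 5.93 to 6.04, 4.99 to 5.36 and 7.15 to 7.37 in the arrays of their own tissue. Subcutaneous fat stood apart from the other tissues, with a lowest correlation between arrays of a group of 0.885 (swim) and 0.856 (control), against at least 0.973 elsewhere, and markers of lymphocytes and lymph node were high in some of its arrays and near background in others. Swim array 22 of that tissue also held kidney markers, swim array 23 skeletal muscle markers and liver control array 52 skeletal muscle markers. Smaller amounts of muscle markers were in subcutaneous control array 20 (0.42), visceral fat swim array 6 (0.33) and brain control array 36 (0.87), where the other arrays of those groups lay at or below -0.51. Liver markers averaged 3.85 in spleen control array 26, against -1.48 to 1.43 in the other spleen arrays. In kidney swim array 15 they averaged 3.21, against 2.20 to 2.43 in the other kidney arrays. They ran from 0.53 to 3.85 in swim and 0.79 to 3.20 in control subcutaneous fat. In visceral fat they ran from 0.21 to 1.91 in swim and 0.46 to 2.39 in control arrays, and in muscle from 0.78 to 2.75 and 0.02 to 2.66. Pancreas markers also varied in spleen, from -0.86 to 0.40 in swim and -0.60 to 1.04 in control arrays, with control arrays 27 (1.04) and 28 (0.80) highest. Counts in liver and subcutaneous fat are given with and without arrays 52, 22 and 23, and those of the other tissues without each array that decided them. The number of arrays limits the precision of every value. In whole tissue, fewer cells of a type and less RNA per cell cannot be told apart, and probes shared between related genes or pseudogenes were not tested.

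At rest the subunits were highest in skeletal muscle and lowest in spleen. In the 27 control arrays 76 subunits passed the filter, and 74 of them were higher in muscle than the mean of the other 6 tissues, against 44.4% of all 11719 genes. The same contrast was lower in muscle for 2 subunits, Cox6a1 and Cox8a, against 36.8% of all genes. These contrasts share their arrays from tissue to tissue. The median of the 76 in muscle was 1.49 above the other tissues, while that of all genes was 0.07 above. Muscle had the highest mean for 71 of the 76, liver and visceral fat for 2 each and subcutaneous fat for 1.

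Spleen lay at the other end. There 75 subunits were lower and 1 higher, against 50.7% and 33% of all genes, with a median of -1.42 against -0.22 for all genes. The exception was Cox7a2l, a complex IV relative that takes part in joining complexes III and IV, at 0.27 ± 0.07 (SE) over the other tissues. In brain 0 were higher and 76 were lower, against 23.2% and 63.1% of all genes, with a median of -0.88 against -0.49. Spleen had the lowest mean for 63 of the 76 subunits and brain for 9.

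Liver, kidney and visceral fat came between. Liver had 68 higher and 3 lower, against 46.3% and 29.2% of all genes, and kidney 56 higher and 3 lower, against 30% and 44.2%. Visceral fat had 49 higher and 3 lower, against 43.6% and 29.5%, the share nearest to that of all genes among these 3 tissues. Subcutaneous fat had 3 higher and 61 lower, against 24.7% and 46.9%, and its control arrays 18, 19 and 20 are those with high lymphocyte markers. Without subcutaneous fat, muscle again had 74 higher and 2 lower and spleen 1 higher and 75 lower. Scaling decided the size of the liver, brain and subcutaneous fat counts and the place of liver among the tissues. When all 54 arrays were quantile normalized together, liver had 12 higher and 9 lower, brain 2 and 48, and subcutaneous fat 8 and 37. Muscle then had 73 higher and 2 lower and spleen 1 higher and 74 lower. The median of the subunits over the other tissues was then 0.044 in liver, 0.44 in kidney and 0.27 in visceral fat. Scaling within tissues gave 0.67, 0.37 and 0.33. Tissue orders of single subunits below are from scaling within tissues.

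**Figure D1:**
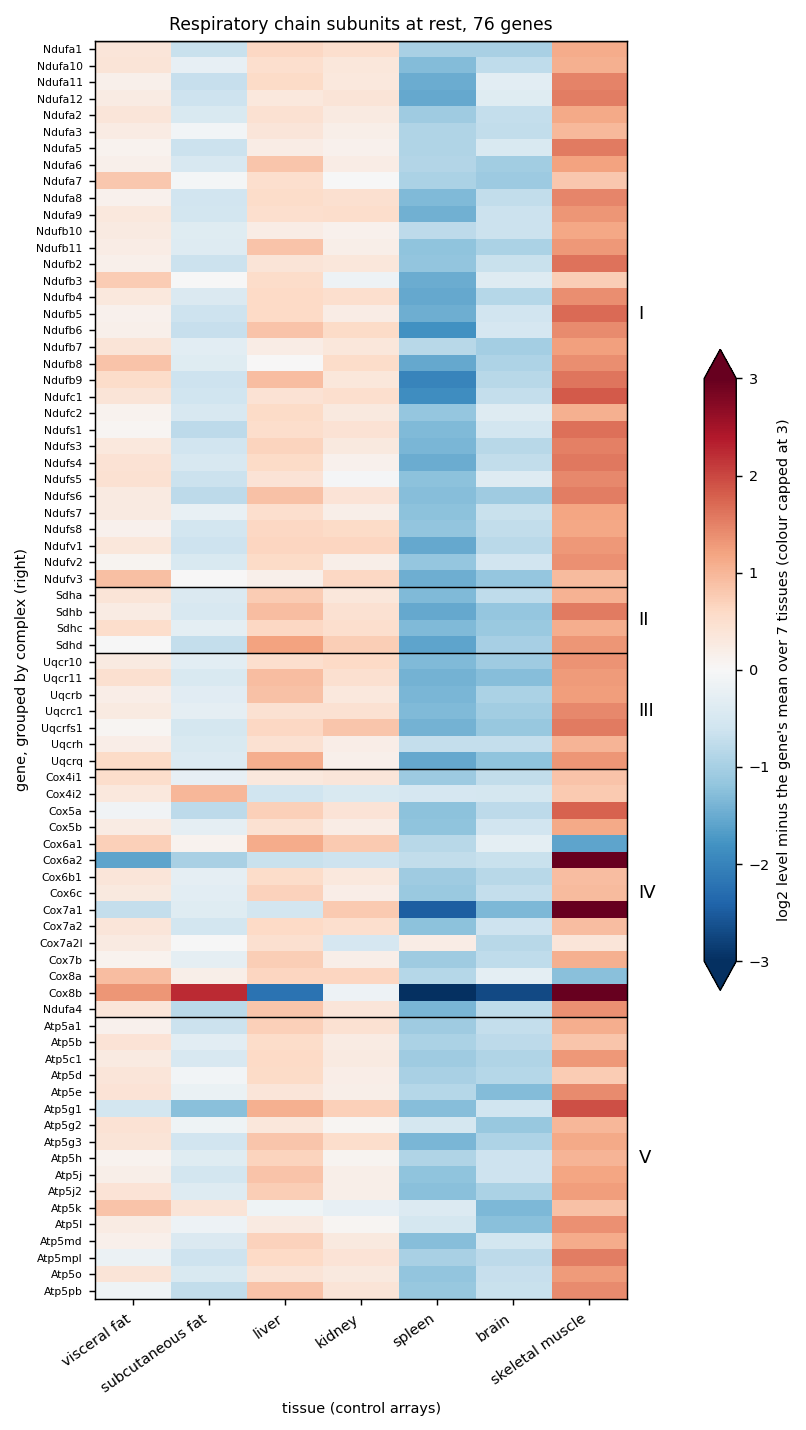
Levels of the 76 subunits at rest, one row per gene grouped by complex and one column per tissue. Colour gives the mean of the control arrays minus the gene's mean over the 7 tissues, in log2 units. The muscle column is red and the spleen column blue in nearly every row, and Cox6a1 and Cox8a are the 2 subunits lower in muscle.

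Complex I had the same ends of the order, muscle highest and spleen lowest, in its catalytic subunits Ndufs1 and Ndufv1. Ndufs1, the largest iron-sulphur subunit, averaged 4.74 ± 0.0811 in muscle (SD, n = 4), against 3.63 ± 0.121 in liver (n = 3), 3.53 ± 0.0591 in kidney, 3.17 ± 0.0470 in visceral fat, 2.55 ± 0.0444 in brain, 2.31 ± 0.687 in subcutaneous fat and 1.77 ± 0.0705 in spleen (n = 4 each). Muscle was 3.78-fold above the mean of the other 6 tissues on the log2(intensity + 16) scale, and its arrays did not overlap those of liver, the next tissue. Liver and kidney differed by less than the threshold required (difference 0.10, adjusted p = 0.68), and so did brain and subcutaneous fat (0.24, adjusted p = 0.24, limma). Ndufv1, which binds NADH, was 1.53 above the other tissues in muscle and -1.79 in spleen. The widest spread between tissues in complex I belonged to the accessory subunits Ndufc1, Ndufb9, Ndufb6 and Ndufb5, with ranges of tissue means of 3.70, 3.60, 3.22 and 3.16, each highest in muscle and lowest in spleen. The median range was 2.51 over the 76 subunits and 2.05 over all genes.

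Complex II, which is also an enzyme of the citrate cycle, and complex III followed. Sdhb, the iron-sulphur subunit of complex II, averaged 5.18 in muscle, 4.56 in liver, 4.08 in kidney, 3.87 in visceral fat, 3.15 in subcutaneous fat, 2.48 in brain and 2.09 in spleen. Neighbours in that order differed past the threshold except kidney and visceral fat (difference 0.22, adjusted p = 0.21, limma). Sdha, the flavoprotein subunit, was 1.21 above the other tissues in muscle. In complex III, Uqcrc1, a core protein, was 1.69 above in muscle and Uqcrfs1, the Rieske iron-sulphur protein, 1.82 above. By complex, the median over the other tissues was 1.59, 1.41, 1.55, 1.11 and 1.37 in muscle for complexes I to V and -1.52, -1.68, -1.59, -1.26 and -1.24 in spleen.

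ATP synthase showed one gene that stood out from its close relatives. Atp5g1, Atp5g2 and Atp5g3 encode the same mature subunit c, which forms the rotating ring. Atp5g1 was 2.25 above the other tissues in muscle (4.77-fold), while Atp5g2 was 1.15 and Atp5g3 1.34 above. Atp5g1 averaged 6.35 in muscle, 5.47 in liver, 5.13 in kidney, 3.86 in visceral fat, 3.81 in brain, 3.16 in subcutaneous fat and 3.14 in spleen. The catalytic subunits Atp5a1 and Atp5b were 1.26 and 0.97 above in muscle. The narrowest ranges between tissues were those of Cox7a2l at 1.31, Cox4i2 at 1.59 (lowest in liver, where it failed the filter), Atp5d at 1.73, Uqcrh at 1.74, Atp5b at 1.78 and Ndufa3 at 1.88.

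Complex IV held the 3 widest ranges of the set, and all 3 belonged to muscle isoforms. Each was at or under the filter in some tissues, Cox6a2 in visceral fat and liver, Cox7a1 in spleen and Cox8b in liver, spleen and brain, so folds against those tissues are lower bounds, with each such array counted at no less than its filter level. Between the highest and lowest tissue Cox8b spanned at least 7.19, Cox7a1 at least 6.63 and Cox6a2 at least 6.39. Cox6a2 had 5.38, 5.57, 5.53 and 5.34 in the control muscle arrays 41 to 44, while in the other 6 tissues its means lay between -1.37 in visceral fat and -0.41 in kidney. That is at least 65.1-fold over the mean of the other tissues (log2 bound 6.02, and 6.10 without liver array 52, adjusted p of the measured difference = 4.4e-19, limma), and the highest control array of any other tissue was liver array 52 at 0.60. Below muscle, the neighbours kidney, brain, liver, spleen and subcutaneous fat did not differ past the threshold in Cox6a2.

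Its partner ran the other way. Cox6a1 had 2.14, 1.94, 2.19 and 2.04 in the control muscle arrays, the lowest of any tissue, and averaged 4.79 ± 0.0980 in liver, 4.45 ± 0.0314 in kidney, 4.38 ± 0.0897 in visceral fat, 3.76 ± 0.694 in subcutaneous fat, 3.38 ± 0.0136 in brain and 2.83 ± 0.0498 in spleen. It was lower in muscle than the mean of the others by a log2 value of -1.85 ± 0.14 (adjusted p = 3.6e-11, limma). Liver and kidney, and kidney and visceral fat, did not differ past the threshold in Cox6a1.

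The second pair was less opposed. Cox7a1 had 5.72, 5.86, 5.82 and 5.73 in control muscle, at least 41.4-fold above the mean of the other tissues (log2 bound 5.37, and 5.44 without liver array 52, adjusted p of the measured difference = 2.3e-12, limma). The next tissue was kidney at 1.89 ± 0.107, then subcutaneous fat at 0.73 ± 1.71, whose arrays ran from -1.08 to 2.69. Its partner Cox7a2 was also highest in muscle, at 4.54 ± 0.0382, which was 1.08 ± 0.18 above the other tissues (adjusted p = 1.1e-05). In Cox7a2, muscle and liver, with 4.22 ± 0.0287, did not differ past the threshold.

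The third pair reached beyond muscle. Cox8b had 6.33, 6.36, 6.39 and 6.32 in control muscle (at least 36.7-fold above the others, log2 bound 5.20, and 5.35 without liver array 52, adjusted p of the measured difference = 3.7e-11, limma). It was also high in subcutaneous fat, with 4.57, 4.57, 3.04 and 3.40 in control arrays 17 to 20, and in visceral fat, with 2.56, 3.63, 2.75 and 2.99. Both fats lay above kidney, with 1.35, 1.22, 2.09 and 1.41, and spleen averaged -1.50 ± 0.122. In brain Cox8b averaged -1.05 ± 0.569. Kidney's highest control array in Cox8b, array 11, was also its highest in Ucp1, the uncoupling protein of brown fat, at 3.78 against 1.87, 1.77 and 2.27 in arrays 9, 10 and 12. In control arrays 17 to 20 of subcutaneous fat Ucp1 was -2.07, 4.08, -0.21 and 1.39, and in control visceral fat -2.30 to -1.82. Arrays 17 and 18, alike in Cox8b, thus differed in Ucp1. Liver shows how 1 array can set a mean. Cox8b was -1.67 and -2.01 in control arrays 49 and 50 and 2.03 in array 52, where 9 muscle markers averaged 2.87 against -0.94 and -1.19. Cox6a2 was -0.96 and -1.06 in arrays 49 and 50 and 0.60 in array 52, and Cox7a1 0.29, -0.02 and 1.39, so their liver means at rest rest on array 52. The partner Cox8a had its highest mean in visceral fat, at 5.62 ± 0.124, and its lowest in muscle, at 3.43 ± 0.0508 (log2 -1.45 ± 0.10 against the others, adjusted p = 2.3e-12).

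**Figure D2:**
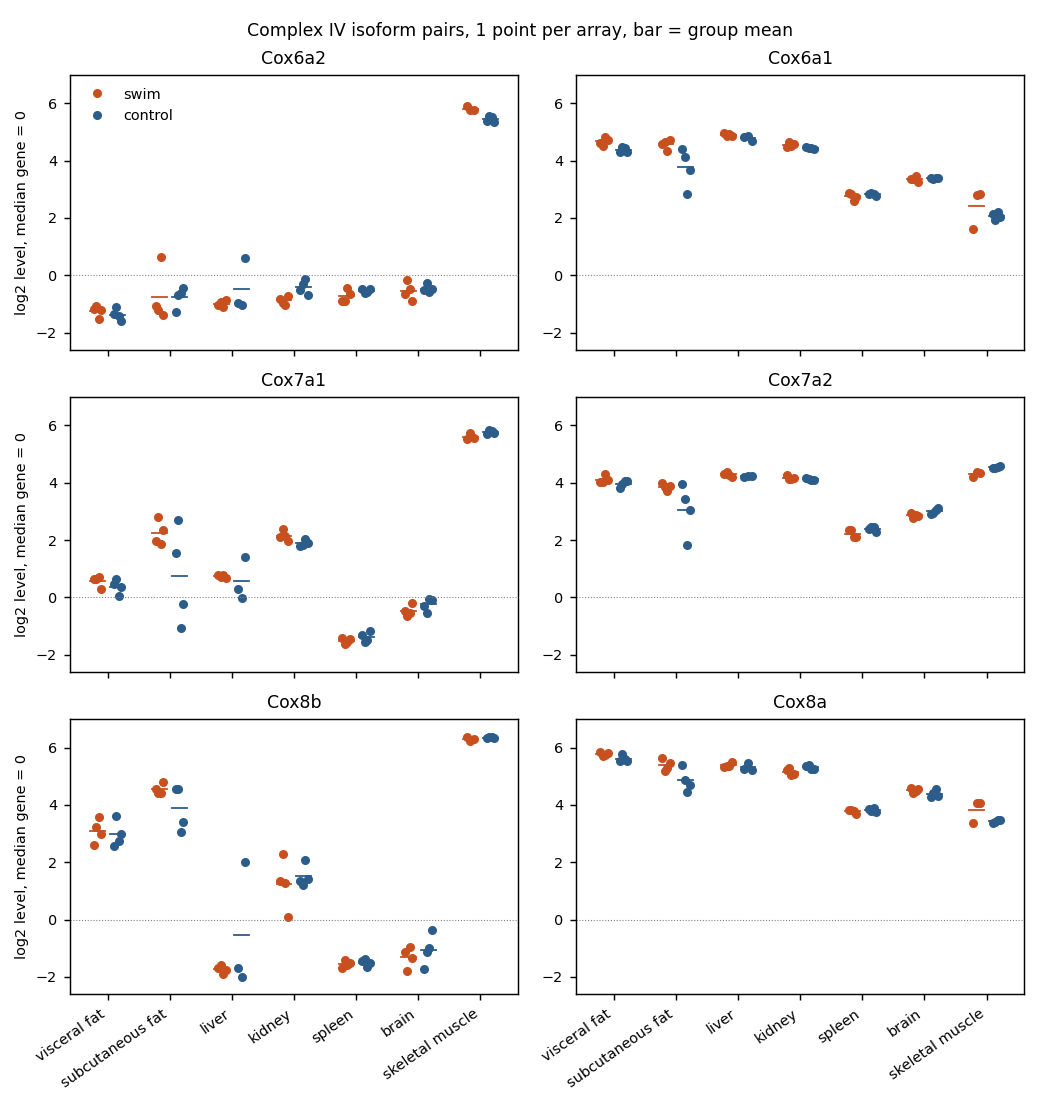
Levels of 3 complex IV isoform pairs in log2 units, 1 point per array with swim left of control in each tissue and a bar at the group mean. The muscle isoforms are in the left column and their partners in the right, and Cox6a2, Cox7a1 and Cox8b stand between 5.34 and 6.39 in every muscle array, while Cox6a1 and Cox8a have their lowest group mean in control muscle and are higher in swim muscle arrays 46 and 47.

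Promoter sequence is shown for these isoforms because they part company between tissues. RefSeq promoter windows (GRCm38.p6, 250 bases before to 50 after the annotated start) were found for 66 of the 79 genes, and none was listed for Cox6a2. Capitals mark matches, on either strand, to the palindromic binding motif of NRF1, the ETS motif that GABPA also binds (CCGGAAG) or the muscle E-box (CAGCTG). The short site of estrogen-related receptors (AAGGTCA) and the MEF2 motif were searched too.
Cox6a1, chr5:115348909-115349208, minus strand: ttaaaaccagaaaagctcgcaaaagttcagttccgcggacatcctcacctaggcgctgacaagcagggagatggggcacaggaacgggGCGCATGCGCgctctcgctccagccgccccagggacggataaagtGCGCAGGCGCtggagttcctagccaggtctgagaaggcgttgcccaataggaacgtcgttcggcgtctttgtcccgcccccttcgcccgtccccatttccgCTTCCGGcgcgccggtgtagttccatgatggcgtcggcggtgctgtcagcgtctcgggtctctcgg
Cox7a1, chr7:30183921-30184220, plus strand: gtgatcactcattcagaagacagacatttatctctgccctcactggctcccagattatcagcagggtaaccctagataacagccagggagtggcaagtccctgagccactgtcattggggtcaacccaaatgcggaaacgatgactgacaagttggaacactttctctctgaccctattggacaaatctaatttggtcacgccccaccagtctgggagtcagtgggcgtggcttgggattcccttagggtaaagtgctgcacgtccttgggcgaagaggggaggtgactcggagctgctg
Cox7a2, chr9:79759804-79760103, minus strand: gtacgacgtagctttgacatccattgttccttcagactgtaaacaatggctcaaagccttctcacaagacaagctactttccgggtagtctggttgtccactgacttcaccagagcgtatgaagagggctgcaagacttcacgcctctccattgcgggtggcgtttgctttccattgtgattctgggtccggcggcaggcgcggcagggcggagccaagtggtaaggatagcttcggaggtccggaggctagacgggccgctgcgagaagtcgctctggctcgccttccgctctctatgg
Cox8b, chr7:140900397-140900696, minus strand: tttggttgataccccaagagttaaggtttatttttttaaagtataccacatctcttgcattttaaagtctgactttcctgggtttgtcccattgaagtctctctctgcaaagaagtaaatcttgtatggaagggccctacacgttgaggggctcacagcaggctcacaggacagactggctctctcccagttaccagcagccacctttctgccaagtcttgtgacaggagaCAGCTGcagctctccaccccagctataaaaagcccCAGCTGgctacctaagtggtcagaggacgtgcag
Cox8a, chr19:7217567-7217866, minus strand: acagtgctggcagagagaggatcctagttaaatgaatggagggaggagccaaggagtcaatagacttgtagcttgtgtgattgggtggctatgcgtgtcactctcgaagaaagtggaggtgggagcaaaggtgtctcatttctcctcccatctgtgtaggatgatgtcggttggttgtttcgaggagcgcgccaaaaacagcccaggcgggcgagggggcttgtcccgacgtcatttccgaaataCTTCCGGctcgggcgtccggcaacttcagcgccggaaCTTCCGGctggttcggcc
The Cox6a1 window held 2 NRF1 matches and 1 ETS match, that of Cox8a 2 ETS matches, that of Cox8b 2 muscle E-box matches, and those of Cox7a1 and Cox7a2 none. CpG dinucleotides numbered 32 in the Cox6a1 window, 20 in Cox7a2 and 19 in Cox8a, against 7 in Cox7a1 and 2 in Cox8b. Shares are of genes with a match in any of their windows. Over the set, the NRF1 motif was in 25.8% of the 66 genes. It was in 5.19% of all 27025 genes with a window, which are not limited to genes on the array. The ETS motif was in 25.8% and 9.93%, the receptor site in 12.1% and 5.38%, the muscle E-box in 9.09% and 18.3%, and the MEF2 motif in 0 of 66 and 3.7%. The median CpG count was 19 in the set and 8 over all genes. The NRF1 and ETS motifs themselves contain CpG, and the shares were not adjusted for it. These are matches of letters in a window and not sites shown to be bound.

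With swimming, 45 of 528 tests of a subunit in a tissue passed, or 8.52%, against 11.1% of all 80148 tests of a gene in a tissue. Of these 45, 2 exceeded 0.5 in log2, or 4.44%, against 24.4% of the tests that passed over all genes. There were 44 subunits that passed in no tissue, 22 in 1 tissue, 10 in 2 and 1, Uqcr11, in 3. Atp5mpl, Cox6a2 and Cox7a2l each passed in 2 tissues in opposite directions, Cox6a2 in kidney at levels near the filter. In all 45, the swim arrays of the tissue did not overlap its control arrays. The same arrays gave the p-values, so this is not separate support. Over all genes, passed or not, the groups did not overlap for 27.2% in visceral fat, 20.6% in liver and 23.7% in spleen. The counts were 3214 of 11610 genes in kidney and 3249 of 11347 in muscle. The calls were sensitive: 14 of the 45 passed whichever single array was left out, 12 passed on the values as deposited and 30 with arrays centred on their medians. The 30 include Atp5c1 in visceral fat, which then passed as a fall and not as a rise. Under either of these scalings 0 subunits passed as rises in any tissue.

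**Figure D3:**
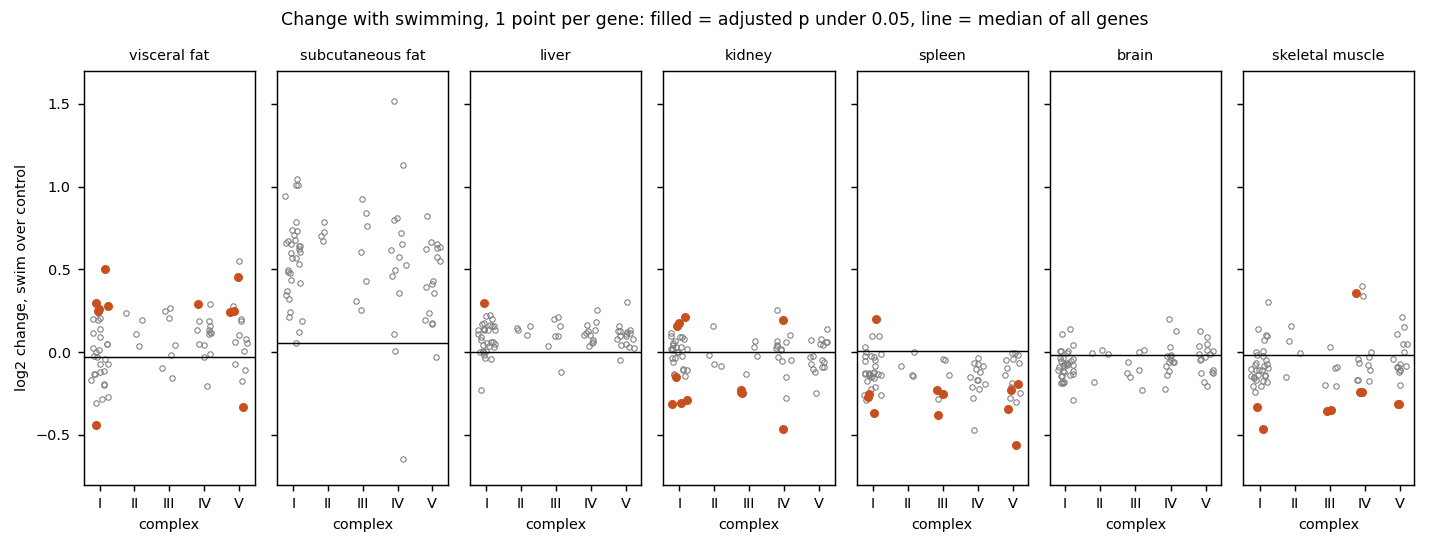
Change with swimming of each subunit, swim minus control in log2 units, by complex and tissue. Filled points passed the adjusted threshold and the horizontal line is the median of all genes in that tissue. Filled points lie on both sides of the line in visceral fat and kidney, mostly below it in spleen and muscle, and there is none in subcutaneous fat or brain.

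In visceral fat 9 subunits rose and 2 fell, out of 76. Of all genes 11.3% rose and 12.1% fell, and the 11 of 76 subunits stand against 23.4% of all genes in either direction. Most of those that rose belong to complexes I and V. Atp5mpl, a small membrane subunit of ATP synthase, had 3.39, 3.39, 3.58 and 3.65 in swim arrays 5 to 8, against 3.09, 3.03, 3.01 and 3.06 in control arrays 1 to 4 (0.45 ± 0.08 SE, adjusted p = 0.0051, limma). Every swim array lay above every control array. Ndufa5, an accessory subunit of complex I, had 1.80, 1.82, 2.09 and 2.25 in swim arrays, against 1.18, 1.66, 1.61 and 1.50 in control arrays (0.50 ± 0.13, adjusted p = 0.024). The lowest control array, 1, widened this difference.

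Ndufs1 had 3.36, 3.51, 3.50 and 3.42 in swim visceral fat, against 3.12, 3.18, 3.14 and 3.23 in control (0.28 ± 0.07, adjusted p = 0.018, limma). Atp5g3 had 4.93, 4.89, 4.94 and 4.93 in swim arrays, against 4.65, 4.70, 4.59 and 4.76 in control arrays (0.25, adjusted p = 0.026). Ndufb3 (0.29), Cox6a1 (0.29), Ndufc2 (0.26), Ndufa6 (0.25) and the gamma subunit Atp5c1 (0.24) also rose. A further probe set of Cox6a1 was higher by only 0.079. The 2 that fell are small subunits. Ndufa2, of complex I, had 3.08, 3.03, 3.00 and 2.98 in swim arrays, against 3.21, 3.59, 3.51 and 3.56 in control arrays (-0.44 ± 0.09, adjusted p = 0.0097). Atp5e, the epsilon subunit of the ATP synthase stalk, had 2.70, 2.70, 2.84 and 2.75, against 2.88, 3.37, 3.03 and 3.04 (-0.33 ± 0.10, adjusted p = 0.042). In Atp5e the highest swim array, 2.84, lay just under the lowest control array, 2.88, and the call held in 1 of the 8 fits that left out an array. Ndufa2 was the one change in visceral fat that passed under every other setting and every array left out.

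The direction in visceral fat depended on scaling. With the values as deposited 0 rose and 1 fell, against 2.38% and 2.86% of all genes, whose median was then -0.10. With arrays centred on their medians 0 rose and 44 of 76 fell (57.9%), against 6.08% and 39.4% of all genes, whose median was -0.22. Under both of them Atp5g3 and Atp5c1 turned to slightly below the median of all genes. The count was 2 without swim array 7, 5 without control array 4, 6 without swim array 8, and 7 without control array 3 or swim array 6. Over all genes, 987 rose and 1024 fell of 11464 without swim array 6, against 1295 and 1382 of 11463 with it. Macrophage markers averaged 2.74, 2.12, 2.13 and 2.45 in swim arrays, against 2.42, 1.87, 1.54 and 1.56 in control arrays, and adipocyte markers 5.90 to 5.98 against 5.91 to 6.21. Their part in these changes was not tested.

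In kidney 4 subunits rose and 8 fell, out of 77. Of all genes 10.8% rose and 13.6% fell, and the 12 of 77 subunits stand against 24.4% of all genes in either direction. The falls included 3 of the 7 complex III subunits. Uqcrc1 had 4.08, 4.19, 4.03 and 4.05 in swim arrays 13 to 16, against 4.37, 4.30, 4.31 and 4.30 in control arrays 9 to 12 (-0.23 ± 0.05, adjusted p = 0.0080, limma). Uqcrfs1 had 2.90, 2.77, 2.87 and 2.79 in swim arrays, against 3.10, 3.05, 3.04 and 3.14 in control arrays (-0.25 ± 0.05, adjusted p = 0.0059). Uqcr11, a small subunit, had 3.15, 3.22, 3.22 and 3.26, against 3.46, 3.50, 3.40 and 3.44 (-0.24 ± 0.04, adjusted p = 0.0047). In each of these, control arrays were tight and every swim array was lower.

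The smallest p of the kidney belonged to Ndufb7, an accessory subunit of complex I, with 2.40, 2.52, 2.42 and 2.39 in swim arrays, against 2.72, 2.76, 2.73 and 2.74 in control arrays (-0.30 ± 0.05, adjusted p = 0.0015, limma). Ndufv3 had 2.90, 2.87, 3.15 and 3.04 in swim kidney, against 3.32, 3.32, 3.27 and 3.30 in control (-0.31 ± 0.06, adjusted p = 0.0068). Ndufb2 (-0.29) and Ndufa10 (-0.15) fell too. The muscle isoform Cox6a2 also fell, at levels below the median gene, with -0.81, -0.96, -1.03 and -0.72 against -0.53, -0.30, -0.13 and -0.69 (-0.47 ± 0.12, adjusted p = 0.016). Those that rose were Ndufb11, with 4.58, 4.74, 4.70 and 4.70 against 4.43, 4.42, 4.54 and 4.49 (0.21 ± 0.05, adjusted p = 0.016), Cox7a2l (0.20), Ndufa6 (0.17) and Ndufb5 (0.16). A further probe set of Ndufb5 moved the other way, at -0.13, so that rise is uncertain.

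As deposited, 0 subunits rose and 0 fell in kidney by limma, against 0.241% and 0.121% of all genes, whose median was 0.11. With arrays centred on their medians 0 rose and 23 of 77 fell (29.9%), against 6.33% and 17.7% of all genes, whose median was -0.04. The 4 rises passed in neither, with changes over the median of all genes in both of 0.13 for Ndufb11, 0.21 for Cox7a2l, 0.099 for Ndufa6 and 0.085 for Ndufb5. The count was 7 without control array 10, and the share of all genes in that fit is not given here. Macrophage markers averaged 0.37, 0.13, 0.29 and 0.30 in swim arrays, against 0.77, 0.84, 0.89 and 0.76 in control arrays. Their part was not tested.

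In spleen 1 subunit rose and 10 fell, out of 75, against 7.04% and 6.97% of all genes. Here 70 of the 75 were lower in swim arrays at any size, where 51% of all genes were higher, and the median of the subunits was -0.14 against 0.0039 for all genes. Their mean level in the 4 swim arrays did not overlap that in the 4 control arrays, at 2.18 ± 0.0783 against 2.33 ± 0.0206 (SD). The falls were spread over complexes I, III and V. Atp5k, subunit e of ATP synthase, had 1.60, 1.59, 1.49 and 1.18 in swim arrays 29 to 32, against 1.996, 2.002, 2.15 and 1.94 in control arrays 25 to 28 (-0.56 ± 0.10, adjusted p = 0.012, limma). Atp5l, subunit g, which sits beside it where ATP synthases pair, had 1.93, 2.07, 1.88 and 2.004, against 2.31, 2.30, 2.42 and 2.25 (-0.35 ± 0.06, adjusted p = 0.012). All 5 further probe sets of Atp5l were lower in swim spleen as well, by -0.38 to -0.29.

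Uqcrc1 had 2.29, 2.19, 2.09 and 2.06 in swim spleen, against 2.68, 2.51, 2.45 and 2.52 in control (-0.38 ± 0.07, adjusted p = 0.015, limma). Ndufa8 had 1.86, 1.87, 1.72 and 1.62 in swim spleen, against 2.17, 2.06, 2.13 and 2.17 in control (-0.37 ± 0.07, adjusted p = 0.013). These 2 were the spleen changes that passed under every other setting. Ndufb7 had 1.35, 1.33, 1.24 and 1.31, against 1.59, 1.60, 1.54 and 1.58 (-0.27 ± 0.05, adjusted p = 0.011). Ndufb10 (-0.25), Uqcrq (-0.25), Atp5o (-0.23), Uqcr11 (-0.23) and Atp5d (-0.19) fell as well. Atp5o and Atp5d are parts of the ATP synthase stalks. The rise was Ndufb3, with 0.72, 0.68, 0.69 and 0.65 against 0.37, 0.44, 0.57 and 0.54 (0.20 ± 0.06, adjusted p = 0.045).

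In spleen 0 rose and 68 of 75 fell with deposited values (90.7%), against 0.581% and 44.5% of all genes, whose median was -0.27. With arrays centred on their medians 0 rose and 24 fell (32%), against 2.47% and 11.9% of all genes, whose median was -0.085. The count was 5 without control array 27, and 6 without control array 25, 26 or 28 or swim array 31 or 32. Over all genes, 324 rose and 452 fell of 11335 without control array 26, against 799 and 792 of 11356 with it. Macrophage markers averaged 2.64, 2.53, 2.27 and 2.06 in swim arrays, against 2.92, 2.82, 2.96 and 2.97 in control arrays, and the 2 erythroid markers on the array 4.49, 4.91, 3.78 and 3.73 against 4.86, 5.02, 4.89 and 4.77. Lymphocyte markers averaged 2.94, 2.90, 3.20 and 2.97 in swim arrays, against 2.84, 2.80, 2.85 and 2.83 in control arrays, with no overlap. Swim arrays 31 and 32, low in macrophage and erythroid markers, were also the lowest in Atp5k, Uqcrc1 and Ndufa8, and the part of these cells was not tested.

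In skeletal muscle 1 subunit rose and 9 fell, out of 76, against 5.68% and 5.68% of all genes. Across all sizes 59 of the 76 were lower in swim arrays, where 46.1% of all genes were higher, and the groups did not overlap for 29, against 28.6% of all genes. Those that fell came from complexes I, III, IV and V. Uqcr11 had 3.80, 4.01 and 3.86 in swim arrays 45 to 47, against 4.29, 4.11, 4.24 and 4.34 in control arrays 41 to 44 (-0.35 ± 0.08, adjusted p = 0.033, limma). Uqcrfs1 had 3.28, 3.58 and 3.48 in swim arrays, against 3.80, 3.74, 3.86 and 3.79 in control arrays (-0.35 ± 0.08, adjusted p = 0.033). Ndufb2 had 2.83, 3.15 and 2.92, against 3.34, 3.31, 3.39 and 3.70 (-0.47 ± 0.12, adjusted p = 0.042). In all 3, swim array 46 came nearest to the control arrays.

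Atp5mpl, which rose in visceral fat, fell in muscle, with 4.38, 4.48 and 4.48 in swim arrays, against 4.76, 4.79, 4.80 and 4.69 in control arrays (-0.31 ± 0.06, adjusted p = 0.021, limma). Ndufa4 had 5.05, 5.04 and 5.04 in swim muscle, against 5.30, 5.22, 5.27 and 5.34 in control (-0.24 ± 0.05, adjusted p = 0.034). Ndufs5 (-0.33), Atp5l (-0.32), Cox7a2 (-0.24) and Cox7a2l (-0.24) made up the rest. The one that rose was the muscle isoform Cox6a2, with 5.90, 5.75 and 5.78 in swim arrays, against 5.38, 5.57, 5.53 and 5.34 in control arrays (0.35 ± 0.08, adjusted p = 0.031).

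The other muscle isoforms did not pass. Cox7a1 had 5.53, 5.75 and 5.56 in swim arrays, against 5.72, 5.86, 5.82 and 5.73 in control arrays, and Cox8b 6.38, 6.24 and 6.30 against 6.33, 6.36, 6.39 and 6.32. The partners of the muscle isoforms differed within the swim group. Cox6a1 had 1.61, 2.81 and 2.82, against 2.14, 1.94, 2.19 and 2.04, and Cox8a 3.38, 4.05 and 4.06, against 3.38, 3.40, 3.48 and 3.47. Swim arrays 46 and 47, high in both, had adipocyte markers at 3.11 and 2.80, against 1.69 in swim array 45 and 2.24, 0.50, 2.02 and 1.90 in control arrays. Ucp1 was 1.23 and 1.88 in swim arrays 46 and 47 and -1.72 in swim array 45. In control arrays 41 to 44 Ucp1 was 0.99, -1.46, -1.41 and 0.91. The part of fat in the samples was not tested.

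No call in muscle passed whichever array was left out. The count was 0 without control array 41 or 43 or swim array 46 or 47, 1 without control array 44, 3 without swim array 45 and 5 without control array 42. Shares of all genes in those fits are not given here. As deposited 0 rose and 1 fell, against 0.784% and 2.68% of all genes, and with arrays centred on their medians 0 rose and 10 fell (13.2%), against 1.86% and 5.98%. Cox6a2 passed in neither, at 0.29 over the median of all genes in both. Macrophage markers averaged 0.16, 0.17 and 0.00 in swim muscle, against 0.70, 0.72, 0.22 and 0.77 in control, and their part was not tested.

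In liver 1 subunit rose and 0 fell, out of 73, against 1.84% and 2.16% of all genes. Ndufb8, an accessory subunit of complex I, had 2.88, 2.80, 2.77 and 2.70 in swim arrays 53 to 56, against 2.44, 2.55 and 2.49 in control arrays 49, 50 and 52 (0.30 ± 0.07, adjusted p = 0.0495, limma). The groups did not overlap, but the call ended in each of the 7 fits that left out 1 array. As deposited or with arrays centred on their medians 0 passed by limma, against 4.47% and 3.19% of all genes. Without control array 52, which held muscle markers, the 1 subunit that passed was the muscle isoform Cox7a1 (0.61 ± 0.10, adjusted p = 0.021, against 0.18, adjusted p = 0.77, with it), with 0.78, 0.71, 0.77 and 0.69 in swim arrays, against 0.29, -0.02 and 1.39 in control arrays 49, 50 and 52. The subunits of liver nevertheless lay on one side. At any size 66 of 73 were higher in swim liver, against 49.9% of all genes, and 29 did not overlap between the groups, against 20.6% of all genes. Without array 52 these were 64, against 45.6%, and 34, against 34.3%. Their mean level was 4.25 to 4.28 in the 4 swim arrays, against 4.16 to 4.18 in the 3 control arrays. The median change was 0.11 with and without array 52, against -0.00058 for all genes, or -0.020 without it. Among those that did not pass, Uqcrc1 had a change of 0.20 (adjusted p = 0.10), Cox7a2l of 0.26 (adjusted p = 0.082) and Ndufa2 of -0.23 (adjusted p = 0.076). Macrophage markers averaged 1.90, 1.97, 1.92 and 1.51 in swim arrays, against 2.57, 2.57 and 2.43 in control arrays, and their part was not tested.

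**Figure D4:**
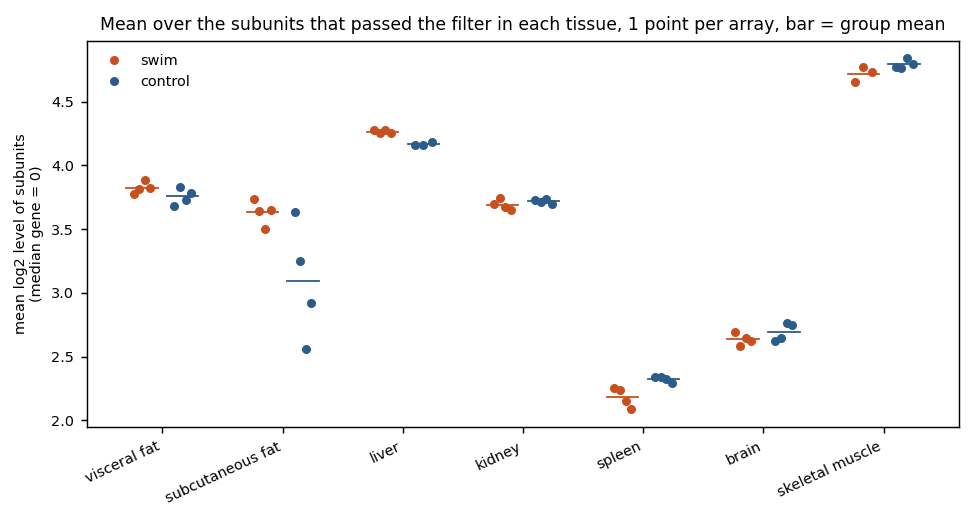
Mean level of the subunits that passed the filter in each tissue, in log2 units, 1 point per array with swim left of control and a bar at the group mean. Swim liver arrays lie at 4.25 to 4.28, all above control liver arrays at 4.16 to 4.18, swim spleen arrays all lie below control spleen arrays, and control subcutaneous fat arrays spread from 2.56 to 3.63.

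In brain 0 subunits rose and 0 fell by limma, out of 75, where 0.43% and 0.0516% of all genes did, and 11 had an unadjusted p under 0.05, against 16.3% of all genes. The smallest p belonged to Ndufa2, with 2.10, 2.01, 2.15 and 2.18 in swim arrays 37 to 40, against 2.26, 2.33, 2.54 and 2.46 in control arrays 33 to 36 (-0.29, adjusted p = 0.13). The arrays of the groups did not overlap, but the change did not pass. Uqcrfs1 (-0.23, adjusted p = 0.16), Atp5j2 (-0.20, adjusted p = 0.17) and Cox4i2 (0.20) did not pass either. With arrays centred on their medians 0 rose and 1 fell, against 0.361% and 0.164% of all genes, and without control array 36 again 0 passed. The mean over the subunits was 2.64 ± 0.0439 in swim brain and 2.70 ± 0.0711 in control brain (SD, n = 4 each).

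Subcutaneous fat had the largest differences and none that passed. By limma 0 of 76 rose and 0 fell, as did 0% of all 11548 genes, while 35 of the 76 had an unadjusted p under 0.05, against 21.6% of all genes. The median of the subunits was 0.59, against 0.05 for all genes, 74 of 76 were higher in swim arrays, against 54% of all genes, and 9 did not overlap, against 9.07%. Without swim arrays 22 and 23 the median of 75 subunits was 0.64, against 0.11 for all genes, 72 were higher, against 57.3%, and 37 did not overlap, against 29.4%. Ndufs1 had 3.35, 3.48, 3.22 and 3.37 in swim arrays 21 to 24, against 3.00, 2.65, 1.42 and 2.15 in control arrays 17 to 20 (1.05, adjusted p = 0.21). Sdhd, a membrane anchor of complex II, had 3.20, 3.47, 3.10 and 3.04, against 2.86, 2.67, 1.92 and 2.20 (0.79 ± 0.23, adjusted p = 0.21). Swim arrays were alike and control arrays spread widely, with array 17 nearest to the swim arrays.

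Cox4i2, an isoform known from lung and linked to oxygen sensing, ran the other way, with 0.48, -0.38, 0.23 and 0.25 in swim subcutaneous fat, against 0.32, 0.47, 1.51 and 0.85 in control (-0.64, not passed). The mean over the 76 subunits was 3.73, 3.64, 3.50 and 3.65 in swim arrays, against 3.63, 3.25, 2.56 and 2.92 in control arrays. The mean of 6 lymphocyte and lymph node markers was -1.39, 2.08, 3.64 and -1.20 in swim arrays, against -1.52, 4.38, 4.79 and 4.60 in control arrays. Adipocyte markers averaged 5.53, 4.73, 5.30 and 5.42 in swim arrays, against 5.71, 4.71, 4.03 and 4.66 in control arrays. Macrophage markers averaged 1.55, 1.88, 2.08 and 1.65 in swim arrays, against 2.26, 2.53, 3.18 and 3.02 in control arrays, with no overlap. Brown adipocyte markers averaged 0.27, 1.26, 0.24 and 1.04 in swim arrays, against -0.46, 1.14, -0.18 and -0.083 in control arrays. The part of these cells in the differences was not tested. The 3 control arrays high in lymphocyte markers were thus the 3 lowest in subunits.

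Control array 17 decided the count. Without it 51 of 76 rose, against 34.5% of all genes called in either direction. Without array 17 and swim array 22, which held kidney markers at 5.24, 42 rose, against 38.1% of all genes, and without swim array 23 as well, which held muscle markers at 3.16, 41 rose, against 41.9%. Without arrays 22 and 23 alone, or with the lymphocyte marker mean as a covariate, 0 passed. These variants were chosen after seeing the data, and leaving out array 17 leaves only control arrays with high lymphocyte markers.

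**Figure D5:**
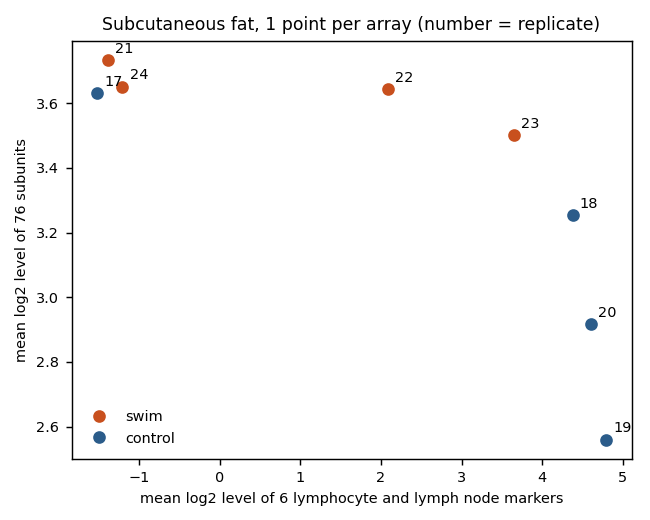
Mean log2 level of the 76 subunits against the mean log2 level of 6 lymphocyte and lymph node markers in subcutaneous fat, 1 point per array with its number. Control arrays 18, 19 and 20 have the highest marker levels and the lowest subunit levels, while control array 17 lies among the swim arrays.

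Whether the change with swimming differed between tissues was tested in 1 fit of all 54 arrays. It differed for 58 of the 76 subunits (F test, 7 tissues, limma), against 47.4% of all genes, and for 50 without subcutaneous fat, against 41.9%. Between pairs of tissues, the change in subcutaneous fat was above that in spleen for 38 subunits and below it for 0, against 8.59% of all genes in either direction. The change was above that of spleen for 25 subunits in liver (below for 0, against 11.2% of all genes) and for 25 in visceral fat (below for 1, against 15.5%). It was above that of muscle for 26 in subcutaneous fat (below for 0, against 5.65%), 17 in visceral fat (below for 2, against 17.2%) and 12 in liver (below for 1, against 10.9%). In the separate fit of subcutaneous fat 0 of 76 subunits passed. Its lymphocyte markers averaged 4.38 to 4.79 in control arrays 18 to 20, -1.52 in control array 17 and -1.39 to 3.64 in swim arrays. The part of lymphocytes in the pairwise counts was not tested. Between brain and muscle 0 subunits differed by limma, against 2.78% of all genes, and between liver and brain 0, against 3.61%.

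Single subunits show these differences most plainly. The change of Atp5mpl in visceral fat exceeded that in muscle by 0.77 ± 0.11 (adjusted p = 6.7e-06, limma). The change of Uqcrc1 in liver exceeded that in spleen by 0.58 ± 0.09 (adjusted p = 9.6e-06), that in kidney by 0.43 ± 0.08 (adjusted p = 0.00038) and that in muscle by 0.39 ± 0.09 (adjusted p = 0.0034). Its changes in kidney and muscle differed by -0.04 ± 0.08 (adjusted p = 0.80). Cox7a2l changed more in kidney than in muscle, by 0.44 ± 0.09 (adjusted p = 0.00061), and Cox6a2 less, by -0.82 ± 0.24 (adjusted p = 0.015), although the F test of Cox6a2 over the 7 tissues did not pass (adjusted p = 0.055). In swim kidney Cox6a2 lay near the filter level. Uqcr11, the subunit that fell in kidney, spleen and muscle, had differences between those 3 tissues of -0.01 to 0.12, none of which passed. A further probe set of Uqcr11 was lower by -0.22 in kidney, -0.32 in spleen and -0.41 in muscle.

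The proteins that assemble the chain, its mobile carriers and the citrate cycle were counted beside the subunits. Among 13 complex I assembly factors, 3 fell in visceral fat, 4 in kidney and 2 in muscle, and 0 rose in any of the 7 tissues. Of all genes 12.1%, 13.6% and 5.68% fell there, and 6.97% in spleen, and these short lists are read against those shares. Ecsit fell by 0.47 in visceral fat (-0.47 ± 0.09, adjusted p = 0.0072, limma) and by 0.38 in kidney, and Ndufaf7 fell by 0.48 in visceral fat. Of 21 complex IV assembly factors, 6 fell and 1 rose in muscle, 4 fell and 1 rose in kidney, and 2 fell and 1 rose in visceral fat and in spleen. Cox15, which makes the heme A of complex IV, fell in visceral fat (-0.31), kidney (-0.33), spleen (-0.34) and muscle (-0.30). Surf1, another complex IV assembly factor, fell in visceral fat (-0.33). Of 15 carriers and related enzymes, Coq4, which takes part in making ubiquinone, fell in visceral fat (-0.58 ± 0.08, adjusted p = 0.0017, limma), kidney (-0.29) and spleen (-0.29). Of 13 citrate cycle genes, citrate synthase (Cs) fell in kidney (-0.16) and spleen (-0.23), while Idh2 rose in kidney (0.20). In these lists, 0 genes passed in liver, brain or subcutaneous fat by limma. Ppargc1a, a coactivator of mitochondrial genes, had 3.11, 2.90, 3.22 and 2.91 in swim liver, against 1.997, 2.08 and 2.58 in control liver (0.82 ± 0.15, adjusted p = 0.027, and 1.01 ± 0.11, adjusted p = 0.0066, without control array 52). In kidney it had 4.16, 4.11, 4.07 and 4.12 in swim arrays, against 3.73, 3.84, 3.87 and 3.72 in control arrays (0.33, adjusted p = 0.0018). It did not pass in muscle (0.27, adjusted p = 0.091).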

How the data were processed

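The deposited values were one intensity per probe set and array on a linear scale, made by the authors. PLIER and limma are named in the submitters' processing notes with no role or version, and the genome build behind the probe sets is not given in the sources used here. Array 75th percentiles differed within groups by up to 1.89-fold, so log2(intensity + 16) was quantile normalized within each tissue, and levels were set relative to the tissue's median gene. Of the probe sets 21086 had 1 symbol, 1867 several and 2964 none, and only the first kind was tested. The lowest 40% of probe sets by mean were dropped and each gene was read from its probe set of highest mean. Limma 3.58.1 in R 4.3.3 (statmod 1.5.0, plots with matplotlib 3.10.9) fitted swim minus control within each tissue, each tissue against the other 6 over the 27 control arrays, and an F test over 14 group means with 1 variance per tissue. Benjamini-Hochberg adjustment ran over all genes of a fit. Only the swim minus control fits within each tissue were tested on simulated data. Promoter windows came from RefSeq by Entrez gene identifier (GRCm38.p6), and all 79 genes matched a RefSeq gene.

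The members, lists and tests were chosen with earlier results of these data known. Named subunits were, per tissue, up to 10 rises and 10 falls that passed, filled to 5 per direction by smallest p, the isoform pairs, the 8 widest and 6 narrowest ranges at rest and 10 defining subunits, and the text gives a part of these. Atp5g2, Ppargc1a, Cox15 in muscle and Cox7a1 in liver were named after their values were seen. From the other lists up to 4 of smallest p that passed were eligible. Alternatives were other scalings, pseudocounts of 1 and 64, no filter, the mean of a gene's probe sets, a trended robust fit, 1 fit of all arrays and each array left out.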

Additional observations from a re-analysis of the deposited data

Results flagged for a closer look

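Among 127 groups of 4 arrays examined for the subunits named, 5 held an array far from the other 3 by Dixon's criterion, and chance alone gives about 1 in 20. In swim visceral fat Atp5g3 was 4.89 in array 6, against 4.93 to 4.94 in the others, and Ndufc2 was 5.24 in array 7, against 5.26 in the others, gaps that are small beside the difference from the control arrays. In swim kidney Ndufa6 was 4.01 in array 14, against 4.15 to 4.17. In swim spleen Uqcr11 was 1.17 in array 31, against 1.35 to 1.37. In swim subcutaneous fat Cox6a2, the muscle isoform, was 0.64 in array 23, against -1.37 to -1.09, and array 23 is the one with skeletal muscle markers at 3.16. The change with swimming differed between the 7 tissues for 58 of 76 subunits in the F test, and leaving out subcutaneous fat is covered among the processing alternatives.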

How the results depend on the processing

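Counts of subunits that passed for swim against control moved with scaling. With the values as deposited they were 1 in visceral fat (11 as reported), 0 in liver (1), 0 in kidney (12), 68 in spleen (11) and 1 in muscle (10). With arrays centred on their medians they were 44 in visceral fat, 0 in liver, 23 in kidney, 24 in spleen and 1 in brain (0). Without a filter they were 7 in visceral fat, 0 in liver, 6 in spleen and 1 in muscle. In 1 fit of all 54 arrays, which pools the spread of tissues, they were 64 in subcutaneous fat (0 as reported, with 55.7% of all genes passing in that fit), 0 in liver, kidney and muscle, and 2 in spleen. Liver also had 0 with a pseudocount of 1 or the mean of a gene's probe sets, 2 with a pseudocount of 64 and 3 with a trended robust fit. In subcutaneous fat 42 passed without arrays 17 and 22 and 41 without arrays 17, 22 and 23, settings chosen after seeing the data. The median change of the subunits minus that of all genes was -0.091 in visceral fat under both other scalings (0.10 as reported), 0.14 in liver (0.11), -0.15 in muscle (-0.074) and -0.066 in kidney (0.0038), where it was -0.0057 without a filter. Under both other scalings Atp5g3 was -0.016 and Atp5c1 -0.023 in visceral fat, and in spleen Ndufb5 was -0.019 with the values as deposited. The causes were not tested.

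Leaving out each array in turn gave 2 to 12 in visceral fat, 0 to 51 in subcutaneous fat, 0 to 1 in liver, 7 to 12 in kidney, 5 to 16 in spleen, 0 to 5 in muscle and 0 in brain. The median in kidney then ran from -0.022 to 0.020 and that in liver from 0.091 to 0.13. Apart from the shares given above, no share of all genes is set beside these counts or those under other settings. The counts alone thus do not show whether the subunits or all genes lost calls. At rest, counts with all 54 arrays quantile normalized together were 21 in liver (71 as reported) and 50 in brain (76), and leaving out each control array gave 65 to 73 in liver, 75 to 76 in brain, 51 to 66 in kidney, 58 to 70 in subcutaneous fat, 43 to 66 in visceral fat and 76 in muscle and spleen. The F test gave 50 subunits without subcutaneous fat and at most 60 under its other settings. No paired analysis was possible because swim and control arrays share no replicate number. With 3 or 4 arrays a group, changes of the size seen here lie close to the threshold.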
